A study of Mus musculus with 8 samples.

Results

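Adipocytes store fatty acids as triglyceride, and the glycerol backbone for this is glycerol 3-phosphate. White fat has little glycerol kinase activity, so glycerol freed by lipolysis mostly leaves the cell through aquaglyceroporins, and new glycerol 3-phosphate is made by reducing dihydroxyacetone phosphate. That intermediate comes from glycolysis or, in glyceroneogenesis, from pyruvate by way of pyruvate carboxylase and phosphoenolpyruvate carboxykinase. Glyceroneogenesis is best known in fat for allowing fatty acids to be re-esterified during fasting, and in adipocytes cyclic AMP raises and insulin lowers transcription of the carboxykinase gene Pck1.

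The genes examined were 8 named for these steps: Pck1 and Pcx of the route from pyruvate, the glycerol 3-phosphate dehydrogenases Gpd1, Gpd1l and Gpd2, the glycerol kinase Gk, and the glycerol channels Aqp7 and Aqp3. They were chosen by symbol, and a gene was represented by its brightest probe set annotated to that symbol alone. Of the 8 genes, 7 had such a probe set, out of 22180 genes measured in all, and Gk is not analysed here. Of the 7, 6 passed the filter on low signal (a mean of at least 3.61 over all arrays), while Aqp3 did not. The filter left 11090 genes for testing.

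Epididymal white adipose tissue (eWAT), a visceral fat pad, came from male wild-type (WT) mice (n = 3) and male Abhd15 KO mice (n = 5) on a C57BL/6J background. All were 14 weeks old, on normal chow, without food overnight and then given chow for 1 h, and each array held the RNA of 1 mouse. ABHD15 is an adipocyte protein linked to phosphodiesterase 3B, through which insulin lowers cyclic AMP. How the Abhd15 allele was made, and in which cells it is deleted, is not stated in the labels. Values are log2 expression after RMA (robust multi-array average), so a difference of 1 is a doubling of signal.

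The Abhd15 signal and the tissue markers were examined before the members were compared. Abhd15 read 6.15 to 6.45 in WT and 5.60 to 6.27 in KO, with the library labelled KO 3 (6.27) inside the WT range. The position of the probes relative to the deleted part is not known here, so this does not check the labels. The mean of 8 adipocyte markers was 10.78 to 10.96 in WT and 10.52 to 11.05 in KO. Of the 8, 6 had a lower KO mean and 2 a higher one. Adipoq read 8.57 in KO 5 and 9.56 to 9.90 in the other arrays. Plin4 lay lower in every KO array (10.94 to 11.19, against 11.58 to 11.62 in WT), where 8.53% of tested genes had no overlap. The part of Plin4 in the members' values was not tested. Several arrays stood apart in transcripts of other sources. The mean of 9 immediate early genes, which respond within minutes to stimulation or handling, reached 6.79 (KO 1), 6.84 (KO 2) and 5.93 (KO 3). It was 4.71 to 5.21 in the other arrays. All 9 had a higher KO mean, from 0.02 (Ier2) and 0.05 (Jun) to 1.95 (Egr1) and 2.20 (Fosb) on the log2 scale. Jun in KO 1 and KO 2 (8.08 and 8.13) lay inside the WT range of 7.75 to 8.22. The mean of 3 erythroid genes was 3.12 in KO 1 and 3.62 in KO 2, against 2.37 to 2.62 elsewhere, all 3 below the filter. The anion exchanger Slc4a1 carried most of this, at 4.72 in KO 1 and 5.28 in KO 2, against 2.61 to 3.11 elsewhere. Epb42 was 2.55 and 3.01 in these arrays, against 1.90 to 2.53 elsewhere, while Hemgn (2.07 and 2.56) lay inside the WT range of 2.05 to 2.79. The mean of 8 testis and sperm genes reached 6.41 (WT 1), 5.26 (WT 2) and 4.93 (KO 4), against 3.29 to 3.97 elsewhere. Odf1, a gene of this list, did not follow that pattern, at 10.45 to 10.94 in all arrays and highest in KO 1. For 7 epididymis and seminal vesicle genes the mean was 3.96 in WT 1 and 3.01 in KO 4, against 1.89 to 2.25 elsewhere. It was carried by Svs2, Svs4 and Svs5 in WT 1 and by Lcn5 alone in KO 4. The mean of 7 endothelial genes was 8.24 to 8.58 in WT and 7.76 to 8.25 in KO, lower in 4 of 5 KO arrays than in any WT array, and its part in the members' values was not tested. The other marker lists overlapped between the genotypes: macrophage (7.59 to 7.78 in WT, 7.29 to 7.88 in KO), mesothelial (5.63 to 5.83 and 5.46 to 5.92), fibroblast (8.22 to 8.39 and 8.20 to 8.38) and skeletal muscle (3.36 to 3.83 and 3.39 to 4.14). The mean of 5 brown or beige fat genes also overlapped (3.19 to 3.66 and 3.27 to 3.73), but only Cidea and Cox8b passed the filter. Cidea passed only through its KO values, since its WT mean lay below the filter. Cidea, a lipid droplet protein of brown and beige fat, read 3.38 to 3.77 in WT and 5.41, 5.14, 4.05, 3.91 and 4.11 in KO 1 to KO 5, with no overlap. Cox8b, a respiratory chain subunit of the same cells, read 4.39 to 4.87 in WT and 6.11, 5.64, 4.81, 5.01 and 4.51 in KO 1 to KO 5. Both were highest in KO 1 and KO 2. Ucp1, Elovl3 and Dio2, below the filter, did not follow this. In KO 1 and KO 2, Ucp1 read 2.90 and 2.60 (2.78 to 3.60 in WT). Elovl3 read 2.35 and 2.54 there (2.39 to 4.31 in WT), and Dio2 1.87 and 2.19 (1.91 to 2.57 in WT). The part of Cidea and Cox8b in the members' values was not tested.

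Reference promoter sequences are given as background, and 2 are printed as examples that hold a motif of the regulators named for these genes. Of the 8 genes, 7 (all but Gpd1) had an entry in the RefSeq promoter table of mouse build GRCm38.p6, with 10 start sites in all. Each window ran from 250 bases before to 50 after the start. The windows were searched on both strands for TGACG, the core of the cyclic AMP response element, and AGGTCA, the core bound by nuclear receptors such as PPARG with its partner RXRA. The motifs are different strings but can share bases where they adjoin. TGACG was in 2 of the 10 windows (Pck1 and Gk) and in 20.8% of 32851 promoter windows of the table. AGGTCA was in 3 of the 10 windows (1 of Pcx and 2 overlapping windows of Aqp7) and in 16.3% of all. A match is a match of letters only. Below are the 250 bases before the start of Pck1 (chr2:173152823-173153072, plus strand) and before the upstream start of Aqp7 (chr4:41048137-41048386, minus strand), 5′ to 3′ along the gene. Capitals mark the motif, read from the opposite strand in each. Its leftmost base lies at -90 in Pck1 and at -49 in Aqp7, counted from the start.
Pck1: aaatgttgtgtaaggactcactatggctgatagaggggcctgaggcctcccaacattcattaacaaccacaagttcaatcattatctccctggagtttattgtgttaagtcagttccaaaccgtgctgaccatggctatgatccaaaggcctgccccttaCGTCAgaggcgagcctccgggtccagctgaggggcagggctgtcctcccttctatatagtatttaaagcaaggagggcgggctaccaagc
Aqp7: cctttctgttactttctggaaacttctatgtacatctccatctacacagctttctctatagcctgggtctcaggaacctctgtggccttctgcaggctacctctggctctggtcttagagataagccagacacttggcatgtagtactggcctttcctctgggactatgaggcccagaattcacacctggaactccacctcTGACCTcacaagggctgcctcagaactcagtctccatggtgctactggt

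None of the 6 tested members differed between KO and WT at an adjusted p under 0.05 in limma, where 0% of all 11090 tested genes did. At an unadjusted p under 0.05 the count was also 0 of 6, where 10.5% of tested genes passed (1164). The groups overlapped for all 6, whereas 8.53% of tested genes had no overlap. Of the members 4 had a higher KO mean and 2 a lower one, and 44.8% of all tested genes were higher. Their median log2 fold change was 0.11, against -0.03 over all tested genes. The intervals that follow give how large a change the arrays leave possible for each gene. In whole tissue, a change in the share of adipocytes and a change in RNA per adipocyte cannot be told apart.

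**Figure D1:**
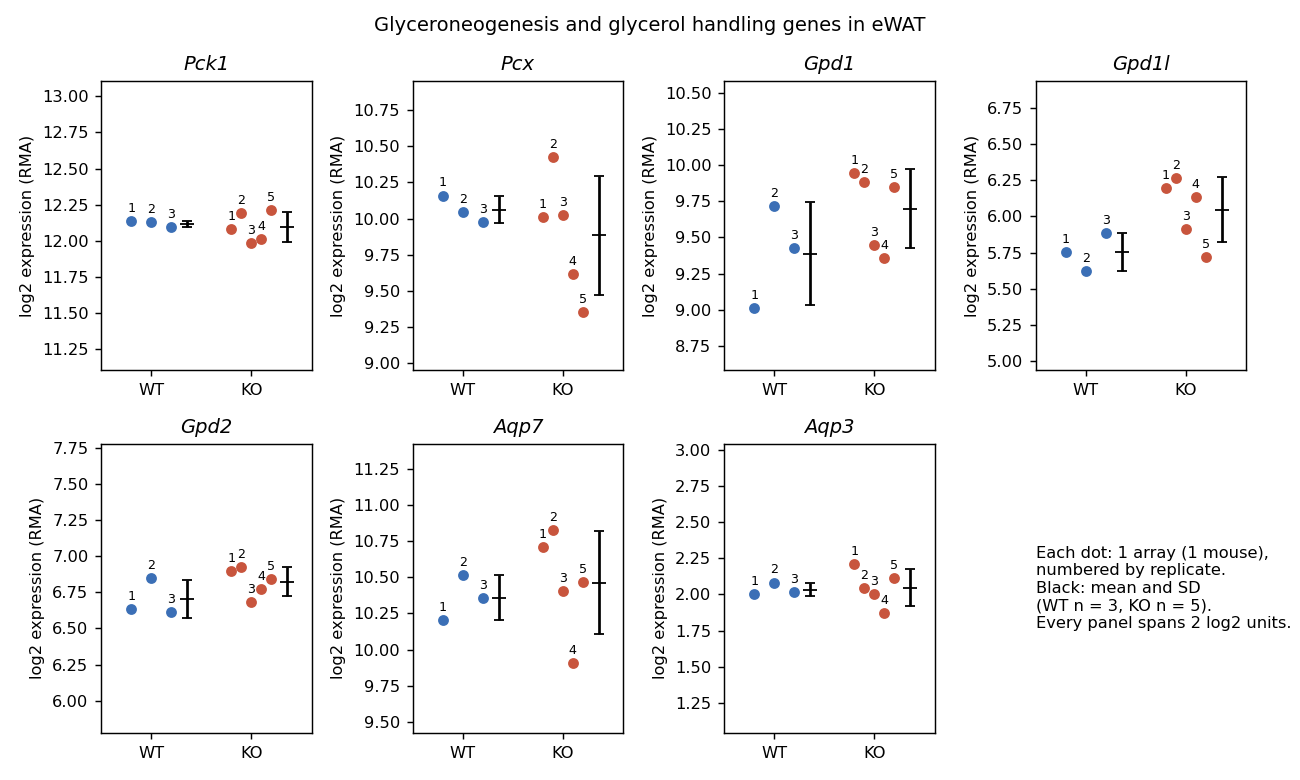
Log2 expression of the 7 measured genes in each array (dots numbered by replicate, WT in blue, KO in red) with group mean and SD in black, every panel spanning 2 log2 units. Pck1 lay within 0.229 over all 8 arrays, while Gpd1, Aqp7 and Pcx spread over a wider range within genotypes.

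Pck1, the cytosolic phosphoenolpyruvate carboxykinase that commits carbon to glyceroneogenesis, was nearly level across the arrays. It read 12.14, 12.13 and 12.09 in WT 1 to WT 3, and 12.09, 12.19, 11.99, 12.01 and 12.21 in KO 1 to KO 5. The KO values straddled the narrow WT range, with 2 above it and 3 below it. WT averaged 12.12 ± 0.02 (SD, n = 3), against 12.10 ± 0.10 for KO (SD, n = 5). KO differed from WT by -0.02 on the log2 scale (SE 0.11, adjusted p = 0.964 in limma), and the 95% interval ran from -0.27 to 0.23. On the linear scale the KO signal was 0.986 of WT, with an interval of 0.827 to 1.18. The highest value on any array was between 13.30 and 13.41, so Pck1 lay near the top of the scale, where array signals can be compressed, and this was not tested. The sign of so small a difference changed with the arrays used and turned positive (0.01) after median centring of the arrays.

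The 3 tested genes whose pattern over the 8 arrays was nearest to that of Pck1 were Apc, Mtpn and Cltc. Their root mean square difference from Pck1, after centring each gene on its own mean, was 0.0400, 0.0494 and 0.05. Each was itself flat between genotypes, with log2 fold changes of 0.01, 0.06 and -0.02.

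Pcx, the mitochondrial pyruvate carboxylase that makes oxaloacetate, varied more among KO mice than among WT mice. It read 10.16, 10.05 and 9.98 in WT 1 to WT 3, and 10.01, 10.42, 10.03, 9.62 and 9.36 in KO 1 to KO 5. KO 2 lay above the WT range, KO 1 and KO 3 inside it, and KO 4 and KO 5 below it. WT averaged 10.06 ± 0.09 (SD, n = 3), against 9.89 ± 0.41 for KO (SD, n = 5). Its log2 fold change of -0.18 (SE 0.22) had an interval from -0.66 to 0.31 and an adjusted p of 0.816 in limma. It was -0.31 without KO 2, -0.11 without KO 4, -0.04 without KO 5, and 0.09 with the replicate number as a block, a fit that rests on KO 1 to KO 3. The adipocyte marker mean was also lowest in KO 5 (10.52) and KO 4 (10.59), and its part in the Pcx values was not tested.

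Gpd1, the cytosolic enzyme that reduces dihydroxyacetone phosphate to glycerol 3-phosphate, had the largest difference among the tested members, with a higher KO mean that did not pass the test. Its values were 9.02, 9.72 and 9.43 in WT 1 to WT 3, and 9.95, 9.89, 9.45, 9.36 and 9.85 in KO 1 to KO 5. KO 1, KO 2 and KO 5 lay above all WT arrays, while the array labelled KO 3 and KO 4 lay inside the WT range. WT averaged 9.39 ± 0.35 (SD, n = 3), against 9.70 ± 0.27 for KO (SD, n = 5). Its log2 fold change of 0.31 (SE 0.20) had an interval from -0.14 to 0.75 and did not pass (adjusted p = 0.616 in limma). The exact two-sided permutation test gave p = 0.179, where the smallest p these group sizes allow is 0.0357. WT 1 held much of the difference: the log2 fold change was 0.12 without it and 0.48 without WT 2. WT 1 was also the array with the highest testis and seminal vesicle marker means, whose part was not tested.

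A dimmer probe set of Gpd1 gave a further reading of the same RNA. It read 4.62, 5.18 and 5.07 in WT and 5.74, 5.72, 5.14, 5.11 and 4.63 in KO 1 to KO 5. KO 1 and KO 2 were again above all WT arrays, but KO 5, high at the brighter probe set, was near the lowest WT value here. Its difference was 0.32 on the log2 scale (SE 0.26, adjusted p = 0.703 in a limma fit over all probe sets with 1 symbol), close in size to that of the brighter probe set. The exact permutation p was 0.321.

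Gpd1l, a cytosolic relative of Gpd1 with the same reaction, had the smallest unadjusted p among the members. It read 5.76, 5.62 and 5.89 in WT 1 to WT 3, and 6.20, 6.27, 5.91, 6.13 and 5.72 in KO 1 to KO 5. KO 1 to KO 4 lay above all WT arrays, the array labelled KO 3 by a narrow margin, and KO 5 fell inside the WT range. WT averaged 5.75 ± 0.13 (SD, n = 3), against 6.05 ± 0.23 for KO (SD, n = 5). The log2 fold change was 0.29 (SE 0.15), with an interval from -0.05 to 0.63, an unadjusted p of 0.0854 and an adjusted p of 0.538 in limma. The exact permutation p was 0.143. Without KO 5 it was 0.37 (unadjusted p = 0.0184, adjusted p = 0.254), and without KO 1 and KO 2, the arrays with the highest immediate early means and Slc4a1 values, it was 0.17 (unadjusted p = 0.331).

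The genes nearest to Gpd1l in pattern were the nitrilase-like Nit2, the antigen-loading protein gene Tapbp and Hint3. Their root mean square differences were 0.0635, 0.0705 and 0.0725 over the 8 arrays. All 3 had a higher KO mean, with log2 fold changes of 0.39, 0.30 and 0.31 that did not pass in limma (adjusted p from 0.386 to 0.527).

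Gpd2, the mitochondrial dehydrogenase that returns glycerol 3-phosphate to dihydroxyacetone phosphate and passes electrons to the respiratory chain, changed little. It read 6.64, 6.85 and 6.62 in WT 1 to WT 3, and 6.90, 6.93, 6.68, 6.77 and 6.84 in KO 1 to KO 5. KO 1 and KO 2 lay just above the highest WT array and the other KO arrays inside the WT range. WT averaged 6.70 ± 0.13 (SD, n = 3), against 6.82 ± 0.10 for KO (SD, n = 5). The log2 fold change of 0.12 (SE 0.12) had an interval from -0.15 to 0.39 (adjusted p = 0.758 in limma).

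**Figure D2:**
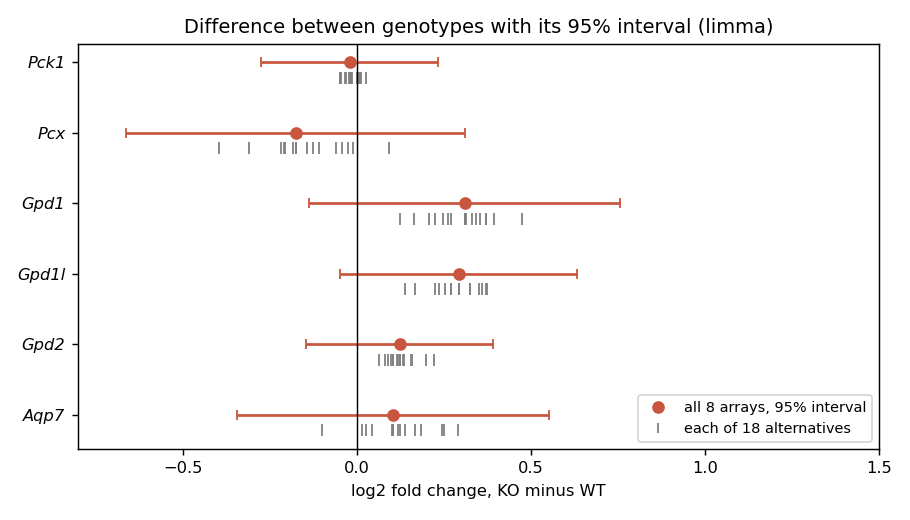
Log2 fold change of KO over WT for the 6 tested genes (red dots) with its 95% interval from limma, and the same value under each of 18 alternatives in grey. Every interval includes 0, the narrowest being that of Pck1 (-0.27 to 0.23) and the widest that of Pcx (-0.66 to 0.31).

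Aqp7, the main adipocyte channel for glycerol release, differed more between KO mice than between genotypes. It read 10.20, 10.52 and 10.35 in WT 1 to WT 3, and 10.71, 10.83, 10.41, 9.90 and 10.47 in KO 1 to KO 5. KO 1 and KO 2 were above all WT arrays, KO 4 was below all of them, and the remaining pair was inside the WT range. WT averaged 10.36 ± 0.16 (SD, n = 3), against 10.46 ± 0.36 for KO (SD, n = 5). The log2 fold change was 0.10 (SE 0.20), with an interval from -0.34 to 0.55 and an adjusted p of 0.887 in limma. It was -0.10 without KO 1 and KO 2, 0.01 without KO 2, 0.04 without KO 1, 0.03 without WT 1, 0.18 without WT 2 and 0.24 without KO 4. With the replicate number as a block it was 0.29 (SE 0.14, adjusted p = 0.333 in limma). On the linear scale the interval ran from 0.788 to 1.47 of the WT signal.

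Aqp3, a glycerol channel best known from skin and kidney, gave signals near the floor of the scale. They were 2.00, 2.08 and 2.02 in WT and 2.21, 2.04, 2.00, 1.87 and 2.11 in KO 1 to KO 5. All lay below the filter of 3.61, so the gene was not tested with the others. The KO minus WT difference was 0.01, and at such low signal a difference in transcript level would be compressed.

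Several members were highest in the same arrays. Pcx, Gpd1l, Gpd2 and Aqp7 were highest in KO 2, and Gpd1 and Aqp3 in KO 1, with Aqp3 below the filter. The share of all tested genes that were highest in these arrays was not determined. The pattern is therefore not read as a trait of the members. Pck1 was highest in KO 5, and in KO 1 both Pck1 (-0.03) and Pcx (-0.05) lay slightly below the WT mean. The mean over the 6 tested members was 9.31 in KO 1 and 9.42 in KO 2, against 8.97 to 9.08 in the other KO arrays and 8.98 to 9.15 in WT. The same pair of arrays had the highest immediate early means and Slc4a1 values given above, and the part of either in the members' values was not tested. Without KO 1 and KO 2 the log2 fold changes were 0.16 for Gpd1, 0.06 for Gpd2, -0.05 for Pck1 and -0.40 for Pcx, and none passed. Without the array labelled KO 3 they were 0.37 for Gpd1, 0.33 for Gpd1l, 0.16 for Gpd2, 0.12 for Aqp7, 0.01 for Pck1 and -0.21 for Pcx, and again none passed. KO 4, which held the lowest Aqp7 and Aqp3 values, was also the array with Lcn5 at 8.56, whose part was not tested.

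**Figure D3:**
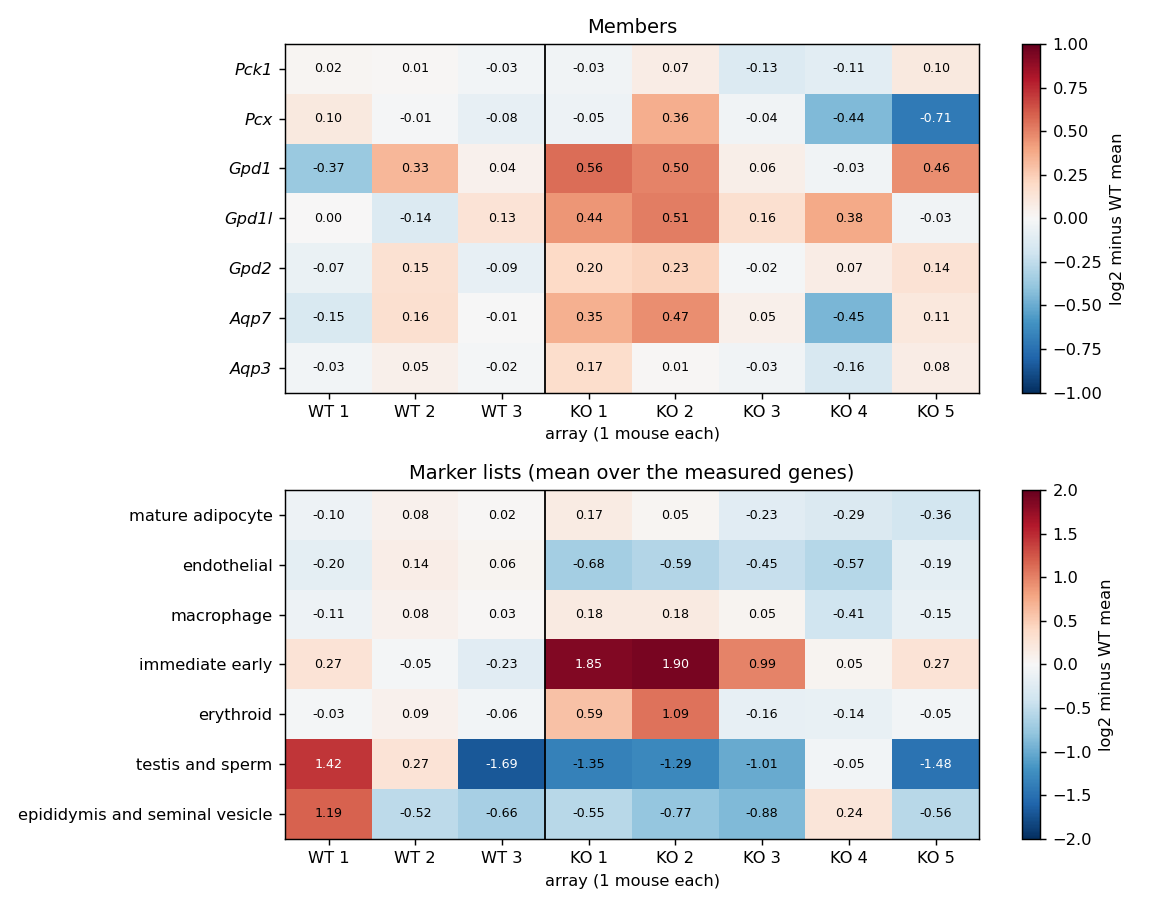
Log2 value of each array minus the WT mean, for the 7 measured genes (upper) and for the means of selected marker lists (lower). WT 1 to WT 3 are left of the line and KO 1 to KO 5 right of it. The lists shown are adipocyte, endothelial, macrophage, immediate early, erythroid, testis and sperm, and epididymis and seminal vesicle. KO 1 and KO 2 are red for Gpd1, Gpd1l and Aqp7. They are also red for immediate early genes (6.79 and 6.84, against 4.71 to 5.21 in all arrays but KO 3). Gpd1 in KO 5 (0.46) and Gpd1l in KO 4 (0.38) are red too, with immediate early means inside that lower range. Pck1 is pale throughout.

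The genes around the members were described from 6 lists of neighbouring steps. At the point where glycerol 3-phosphate is used, 8 of 12 tested genes of acylation and triglyceride assembly had a lower KO mean and 4 a higher one, with a median log2 fold change of -0.24. None passed after adjustment in limma. At an unadjusted p under 0.05, 4 were lower and 1 higher, where 6.46% of tested genes were lower and 4.04% higher. Gpam, the mitochondrial acyltransferase that adds the first fatty acid to glycerol 3-phosphate, read 11.62, 11.06 and 11.20 in WT and 9.91, 9.75, 10.49, 10.38 and 10.23 in KO 1 to KO 5. All KO arrays lay below all WT arrays (log2 fold change -1.14, SE 0.20, adjusted p = 0.140). Gpat3, its counterpart of the endoplasmic reticulum, read 8.84 to 9.07 in WT and 8.13 to 8.38 in KO (-0.69, SE 0.12, adjusted p = 0.140), but -0.31 with the mean of its probe sets. Dgat1, which adds the last fatty acid, was at -0.66 (SE 0.24, adjusted p = 0.375). The lipin gene Lpin3, at 0.67 (SE 0.25, adjusted p = 0.399), had a WT mean of 3.56, below the filter, and was tested only through its KO values. Beside these, the enzymes that supply glycerol 3-phosphate had values between -0.18 and 0.31. The difference between the supply and the use of glycerol 3-phosphate was not tested.

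In the supply of carbon to oxaloacetate and pyruvate, 14 of 17 tested genes had a higher KO mean and 3 a lower one, with a median of 0.10, and none passed after adjustment in limma. At an unadjusted p under 0.05, 2 were higher and 0 lower. Pdk4, the kinase that shuts off pyruvate dehydrogenase and so spares pyruvate for carboxylation, was 9.16 to 10.35 in WT and 9.86 to 10.72 in KO (0.67, SE 0.27, adjusted p = 0.423). The mitochondrial citrate carrier Slc25a1 was at 0.36 (SE 0.16, adjusted p = 0.466) and the dicarboxylate carrier Slc25a10 at 0.57 (SE 0.26, adjusted p = 0.484). Pck2, the mitochondrial counterpart of Pck1, read 6.20, 5.95 and 5.96 in WT and 6.32, 6.06, 6.66, 6.88 and 6.14 in KO 1 to KO 5. Its log2 fold change was 0.37 (SE 0.20, adjusted p = 0.537), and the KO values from KO 2 and KO 5 lay inside the WT range.

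Of 8 tested genes of the glycolytic route to dihydroxyacetone phosphate, 4 were higher and 4 lower in KO, with a median of -0.08. None passed after adjustment in limma, and 1 in each direction had an unadjusted p under 0.05. Tpi1, triose phosphate isomerase, which interconverts dihydroxyacetone phosphate and glyceraldehyde 3-phosphate, read 8.26, 8.48 and 8.58 in WT and 9.44, 9.65, 8.90, 8.85 and 8.85 in KO 1 to KO 5. Every KO array was above every WT array (log2 fold change 0.70, SE 0.21, adjusted p = 0.323), with KO 1 and KO 2 again highest. The phosphofructokinase Pfkp was at -0.51 (SE 0.19, adjusted p = 0.400) and Pfkm at 0.44. The glucose transporter Slc2a1 was at -0.31, but at -0.16 with the mean of its probe sets.

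Of the lipases that free glycerol, their cofactors and lipoprotein lipase, 2 of 8 tested genes had a higher KO mean and 6 a lower one, with a median of -0.12 and values between -0.16 and 0.35. None had an unadjusted p under 0.05 in limma. Mgll, the monoglyceride lipase that frees glycerol in the last step, was at 0.35 (SE 0.23). Pnpla2, the first triglyceride lipase, was at -0.12 (SE 0.14) and Lipe, hormone-sensitive lipase, at -0.12 (SE 0.18). Gpihbp1, the capillary anchor of lipoprotein lipase, was at -0.16 (SE 0.17).

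**Figure D4:**
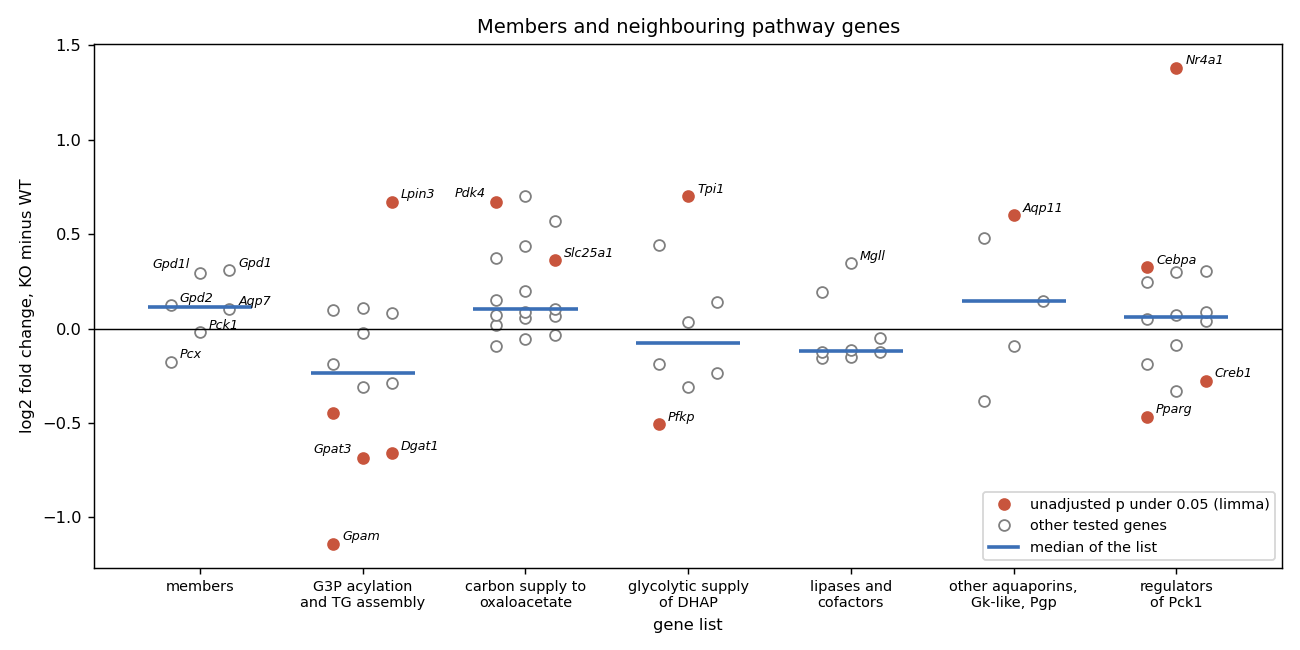
Log2 fold change of KO over WT for the 6 tested members and for the tested genes of 6 neighbouring lists, filled where the unadjusted limma p was under 0.05, with the median of each list as a blue bar. No member is filled, and 5 of 12 genes of glycerol 3-phosphate (G3P) acylation and triglyceride (TG) assembly are, 4 lower and 1 higher. Over all tested genes 10.5% had such a p. The higher gene, Lpin3, was tested only through its KO values. DHAP is dihydroxyacetone phosphate.

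Among other aquaporins, glycerol kinase-like genes and the glycerol 3-phosphate phosphatase Pgp, 5 of 10 measured genes were tested. Of these, 3 were higher and 2 lower, with a median of 0.15, and none passed after adjustment in limma. Aqp11, an intracellular aquaporin also reported in adipocytes, read 5.20, 5.01 and 4.76 in WT and 5.42, 5.95, 5.57, 5.42 and 5.58 in KO 1 to KO 5. The KO arrays were all above the WT arrays (log2 fold change 0.60, SE 0.16, unadjusted p = 0.00390, adjusted p = 0.279). Pgp, which can turn glycerol 3-phosphate back into glycerol, was at -0.38 (SE 0.23), and the water channel Aqp1 at 0.15 (SE 0.22). Aqp9, a glycerol channel also abundant in the epididymis, was 2.99 to 4.14 in 7 arrays and 5.94 in KO 4. Its WT mean of 3.50 lay below the filter, so Aqp9, counted among the 3 higher genes, was tested only through its KO values. In KO 4 the epididymal gene Lcn5 read 8.56, against 2.23 to 3.44 in the others, and its part was not tested. Gk2, a glycerol kinase gene of the testis named after its values were seen, read 4.06 in WT 1, 2.86 in WT 2 and 1.56 to 1.97 in the other arrays. WT 1 and WT 2 were also the arrays with the highest testis marker means.

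Of 14 known transcriptional regulators of Pck1 in fat, 9 were higher and 5 lower in KO, with a median of 0.06, and none passed after adjustment in limma. At an unadjusted p under 0.05, 2 were higher and 2 lower. Pparg, the nuclear receptor that drives adipocyte genes including Pck1 and Aqp7, read 10.37, 10.74 and 10.73 in WT and 10.27, 10.11, 10.36, 10.04 and 9.94 in KO 1 to KO 5. The groups did not overlap, by a margin of 0.01 between WT 1 and the array labelled KO 3 (-0.47 on the log2 scale, SE 0.15, adjusted p = 0.331). Creb1, which binds the cyclic AMP response element, also lay lower in every KO array (7.05 to 7.16, against 7.26 to 7.47 in WT), at -0.28 (SE 0.11, adjusted p = 0.423). Cebpa was higher in every KO array (9.56 to 9.99, against 9.38 to 9.52), at 0.32 (SE 0.14, adjusted p = 0.454). The immediate early receptor Nr4a1 was at 1.38 (SE 0.46, adjusted p = 0.352), with KO 1, KO 2 and KO 3 highest, and it is also in the immediate early list. Beside these values, Pck1 itself stood at -0.02 with an interval of -0.27 to 0.23.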

How the data were processed

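RNA of 8 mice (200 ng each) was measured on an Affymetrix mouse gene array. The authors deposited log2 expression for 41345 probe sets on each array. The submitters' processing notes name RMA and oligo, whereas the series design text names Expression Console. Versions, any filter and the build were not given in the sources used here. These log2 values were used as deposited. The array medians were lowest in KO 1 (2.93) and KO 2 (3.00), against 3.03 to 3.12 in the other arrays.

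Probe sets with 1 gene symbol (23521, with 1814 having several and 16010 none listed) were named from the platform annotation and updated by Entrez identifier (23328 matched) to the symbols of GRCm38.p6. Of several probe sets the brightest was kept (22180 genes), and genes whose mean reached the median of all gene means (3.61) were tested (11090). The genotypes were compared in limma 3.58.1 (R 4.3.3, lmFit and eBayes, two-sided, Benjamini-Hochberg over all tested genes, threshold 0.05). Intervals are 95% intervals of that fit. Single values also had an exact two-sided permutation test over 56 splits. No p was adjusted over the members alone. The procedure was tested on simulated data. At an adjusted p under 0.05 in limma it recovered 0% of genes changed by 0.5 on the log2 scale, 70.1% at 1 and 96.5% at 2. A member changed by 0.5 or less would therefore hardly be expected to pass. Figures were drawn with matplotlib 3.10.9. The number of arrays limits the precision.

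The members and the gene lists were chosen with earlier results of these data known. All members are named, with up to 4 genes of each pathway list by smallest unadjusted p, and, for Pck1 and the member of smallest p, the 3 genes of most similar pattern. The erythroid genes were chosen after the values were seen, since the markers listed first for that cell type are not analysed here. Of these, Slc4a1, Epb42 and Hemgn were measured, all below the filter.

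WT and KO share the numbers 1 to 3. Over the tested genes, the departures of equally numbered arrays from the mean of their group correlated at 0.133, 0.103 and 0.192, all above 0.1. By the rule used this counts as pairing, but the rule does not single out equal numbers. WT 2 with KO 1 also lay above 0.1 (0.105). Unless stated, values come from a fit without pairing. The meaning of the numbers is not stated. A fit with the replicate block, to which KO 4 and KO 5 contribute nothing, is among the alternatives. Others changed the probe set rule, the level filter, the centring of arrays, the array weights and the variance prior, or left out arrays.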

Additional observations from a re-analysis of the deposited data

Results flagged for a closer look

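In the KO group of 5 arrays, the highest or lowest value was set against its nearest neighbour, relative to the group's range, for 43 genes, probe sets and marker means. Chance alone flags a small share of such groups, about 5%, and 2 of the 43 were past the critical value, neither of them a member. Aqp1, a water channel, read 9.69 in KO 5, above the next KO array at 9.01. The mean of the epididymis and seminal vesicle genes was 3.01 in KO 4, above the next KO array at 2.22, and Lcn5 (8.56 in KO 4) carried it.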

How the results depend on the processing

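No member passed an adjusted p of 0.05 under any of the 18 alternatives, and of 108 member values 101 kept the direction of the fit to all arrays. Of the 7 that reversed, 5 were of Pck1: 0.0129 with arrays centred on their medians, 0.00758 without the array labelled KO 3, 0.000583 without KO 4, 0.00875 without WT 1 and KO 4, and 0.0262 without WT 1, WT 2 and KO 4. The others were Pcx with the replicate block (0.0913) and Aqp7 without KO 1 and KO 2 (-0.0993). The cause was not tested. Leaving out single arrays moved Pck1 between -0.0497 and 0.00758. Over all 18 alternatives, which include leaving out several arrays together, Gpd1 ranged from 0.12 to 0.48, Gpd1l from 0.14 to 0.37, Gpd2 from 0.06 to 0.22, Aqp7 from -0.10 to 0.29 and Pcx from -0.40 to 0.09.

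The count of members with an unadjusted p under 0.05 in limma was 1 (Gpd1l) with array weights (adjusted p = 0.223) and ranged from 0 to 1 when single arrays were left out, the 1 being Gpd1l without KO 5. Over all genes, the count past an adjusted p of 0.05 was 0 in the fit to all arrays (1164 at an unadjusted p under 0.05), 40 with array weights, 3 with a trended, robust prior and 2 with the replicate block, and 0 to 5 when single arrays were left out, the 5 being without KO 5. At an unadjusted p under 0.05 it was 1871 without the level filter, 1873 with array weights, 1997 with the replicate block, 741 without WT 1, 730 without WT 1 and KO 4, and 323 without WT 1, WT 2 and KO 4. The replicate block changed no call of a member.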
